A study of Mus musculus with 4 samples.

Results

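The mouse genes named Zfp followed by a 3-digit number encode zinc finger proteins, most of them of the C2H2 type. By this rule, 315 of the 21951 protein-coding genes of the GENCODE M21 annotation were members, and 9 further genes with such a name were not protein-coding and were left out. Small RNAs bound to MILI, the PIWI protein Piwil2, had been immunoprecipitated from testes of C57BL/6 mice at 14 dpp (days after birth). There were 2 libraries of Tdrd9-/- mice, which lack the helicase TDRD9, and 2 libraries of Tdrd9+/- mice, which carry 1 intact copy. The deposited table lists 4906138 distinct sequences with 1 genome position each, without read counts and without a library column. The genotypes could therefore not be compared for any gene, the depth per library is unknown, replicate error could not be given, and a rare and an abundant sequence count alike. A sequence was assigned to a gene when it matched a transcript of that gene exactly and a transcript of no other gene.

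MILI is loaded with piRNAs, small RNAs that guide PIWI proteins to complementary transcripts and protect germ cells from transposons. In young testes, MILI also carries many sense fragments of protein-coding mRNAs, and their first base is most often U. A C2H2 finger is a short fold in which a pair of cysteines and a pair of histidines hold a zinc ion, and arrays of such fingers joined by a conserved linker read DNA. Many Zfp proteins carry a KRAB box, which recruits the corepressor TRIM28 (KAP1) and the methyltransferase SETDB1. KRAB zinc finger genes are known for silencing retroelements, and they have multiplied into families of close copies. That makes their transcripts hard to tell apart by a short sequence.

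In all, 68603 sequences matched a member, and 65578 of them (95.6%) belonged to 1 member and no other gene. Of these, 63950 were sense and 1628 antisense. The sense sequences made up 1.30% of the table and 2.87% of all sense sequences of protein-coding genes, while the members were 1.44% of those genes. They stood at 39955 different 5′ ends. At 64.9% of these ends 1 sequence was listed, and at the fullest end 9 that differed in length. Of the germ cell markers, Ddx4, Dazl, Sycp3, Stra8 and Kit had 140 to 288 sense sequences each. Of the somatic markers, Sox9 had 27, Star 247, and Wt1, Acta2, Myh11, Pecam1, Cyp17a1 and Hsd3b1 had 0 to 7.

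The coding ends with the most sequences in the fullest 6 members are given with the first base in capitals, because that base is the feature most of the list shares. Coordinates are mm9.
Zfp652 (chr11:95610707-95610735, plus strand): Ccaaagtgtataaaagggagtctggaagc
Zfp346 (chr13:55223785-55223813, plus strand): Tatgggcaagagacacaggaagcaggaga
Zfp646 (chr7:135025795-135025824, plus strand): Tgtcactcaagaaccaccggcgcatccatg
Zfp398 (chr6:47815791-47815820, plus strand): Tgaagaacttgtcatcaaagctgaagacct
Zfp740 (chr15:102038300-102038329, plus strand): Tgaaaacggcgagcgggcaggtagccctga
Zfp451 (chr1:33834525-33834553, minus strand): Ttacacttgcgaactcggtggaagaatct
The sequences of Zfp346, Zfp646 and Zfp451 lie within the finger arrays, taken from the first to the last finger. The end in Zfp646 had 9 sequences and that in Zfp740 had 8, while the end in Zfp652, which begins with C, had 4.

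At least 1 own sense sequence was found for 294 of the 315 members and at least 10 for 261 (82.9%). Over all protein-coding genes, 72.6% had at least 1 and 56.3% had at least 10. At least 100 were found for 137 members, against 24.9% of all protein-coding genes. The median member had 77 sense sequences and the median protein-coding gene had 19. Longer transcripts offer more positions, so ends were also counted per kb of the longest transcript. The median was 17.1 ends per kb over the members (quartiles 5.72 and 31.9) and 5.74 over all protein-coding genes (quartiles 0 and 22.3). No sense sequence was found for 21 of the 315 members and for 6005 of the 21951 protein-coding genes. The 50 Zfp genes numbered below 100, outside the rule, had a median of 17.9 ends per kb, close to that of the members. The 40 Zbtb genes, whose proteins join a BTB domain to zinc fingers, had a median of 47.1 ends per kb, and all 40 had at least 10 sequences.

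**Figure D1:**
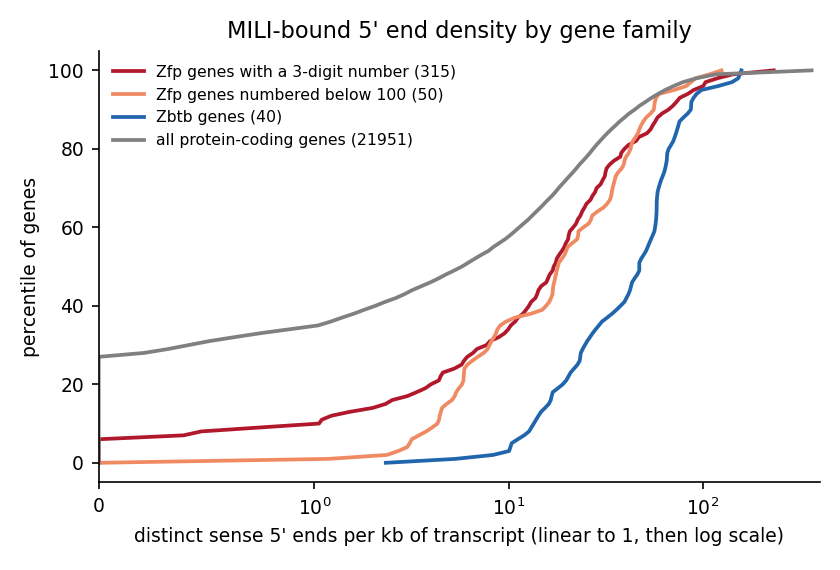
Percentile of genes (vertical axis) against sense 5′ ends per kb, over the longest transcript (horizontal axis, linear up to 1 and logarithmic beyond) for 315 Zfp genes with a 3-digit number, 50 Zfp genes numbered below 100, 40 Zbtb genes and all 21951 protein-coding genes. The members' curve crosses the median at 17.1 ends per kb, that of all protein-coding genes at 5.74 and that of the Zbtb genes at 47.1.

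The fullest 10 members held 15650 sense sequences, 24.5% of the total. Zfp652, whose human counterpart binds the corepressor CBFA2T3, led with 2374 sequences at 1268 ends, or 122 ends per kb of transcript. Its sequences spanned chr11:95574380-95696390 on the plus strand. Zfp346, a protein that binds double-stranded RNA, had 1764 sequences at 773 ends and, with 232 ends per kb, the highest density among members. Its sequences spanned chr13:55206695-55236185. Zfp646 had 1708 sequences (144 ends per kb, chr7:135020325-135029365). Zfp398, whose human counterpart binds the oestrogen receptor and which carries a KRAB box, had 1660 (110 ends per kb). Zfp740 had 1518 (183 ends per kb), and Zfp451, whose human counterpart is a SUMO ligase, had 1399 (71.5 ends per kb). Zfp142, which with 36 had the most fingers of any member, had 1387 (100.1 ends per kb). Zfp704 had 1366, Zfp866 had 1276 and Zfp407 had 1198. Only Zfp398 and Zfp866 of these 10 carry a KRAB box.

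Density gave a partly different order. It divides the ends on any transcript of the gene by the longest transcript, on which 91.6% of member ends lie. Among transcripts of at least 1 kb, Zfp346 was followed by Zfp866 with 201 ends per kb, Zfp740, Zfp646 and Zfp408 with 133. Zfp652 came next, then Zfp369, a protein that binds the neurotrophin receptor, with 121 ends per kb. Zfp217, a repressor whose human counterpart is amplified in breast tumours, had 113 and Zfp398 had 110. Zfp382 had 104 ends per kb from 361 sequences, so a member with fewer sequences could be as dense as Zfp142. For 3 of these genes many ends lie on other transcripts. With only the ends on the longest transcript, Zfp866 had 100.2 ends per kb, Zfp646 had 109 and Zfp369 had 20.3, while Zfp346 kept 231, the highest.

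Along the transcript the fullest members differed. In Zfp652 the ends lay mostly beyond the stop codon, with 141 ends per kb in the 3′ UTR and 41.6 in the coding sequence, a ratio of 3.39. Zfp646 showed the opposite, with 41.9 ends per kb in the 3′ UTR and 146 in the coding sequence (ratio 0.286). In Zfp346 the densities lay nearer each other, at 158 in the 3′ UTR and 184 in the coding sequence (0.857). Zfp398 had 95.8 in the 3′ UTR and 55.4 in the coding sequence (1.73). In Zfp346 and Zfp398 the transcript used here carries only 221 of 773 and 181 of 912 ends, so most of their ends are not placed by region. In Zfp652 and Zfp646 no sense sequence on that transcript was dropped for matching another gene as well. In Zfp142, 152 were, 58 of them in the 3′ UTR, so its regions were not compared.

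**Figure D2:**
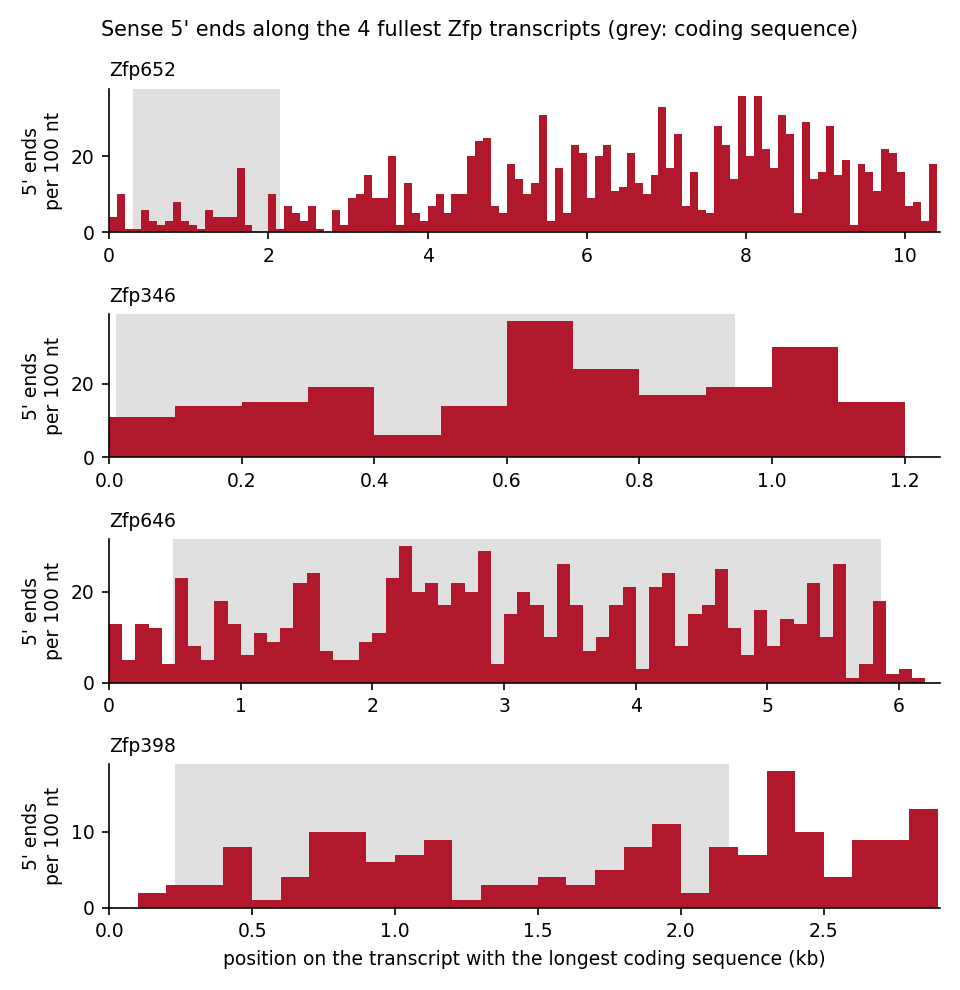
Distinct sense 5′ ends per 100 nt (vertical axes) along the transcript with the longest coding sequence (horizontal axes, kb) of Zfp652, Zfp346, Zfp646 and Zfp398, with the coding sequence shaded grey. This transcript carries 221 of the 773 ends of Zfp346 and 181 of the 912 of Zfp398. The bars of Zfp652 are high in the 3′ UTR (141 ends per kb against 41.6 in the coding sequence), and those of Zfp646 are high in the coding sequence (146 ends per kb against 41.9 in the 3′ UTR).

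Over all members pooled, the 5′ UTR had 20.2 ends per kb, the coding sequence 28.7 and the 3′ UTR 30.8. In other protein-coding genes the values were 9.42, 16.9 and 22.3 ends per kb. The coding sequence held 50.03% of member sequences and 45.3% of those of other genes, and the 3′ UTR held 45.5% and 51.2%. Pooled, 3′ UTR density over coding density was 1.07 for members and 1.32 for other protein-coding genes. The members' ratio was 1.01 without Zfp652. Genes were also compared singly if they had at least 50 ends placed by region and at least 100 nt in each region. The median over the 133 members kept was 0.876, so the pooled value and the median lie on opposite sides of 1. The 3′ UTR was the denser region in 52 of these 133 members (39.1%), against 43% of the 4679 protein-coding genes within the same limits. With the whole transcript cut into 10 equal bins, bin 1 held 7.47% of member ends, bin 6 held the most with 11.9%, and bin 10 held 7.66%. Other genes peaked in bin 8, with 11.8%.

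The KRAB box was called by a score of at least 12 of 17 conserved residues, the highest over all translated coding transcripts of a gene. Scores were split, with 178 members at 14 or more, 127 under 9 and 10 in between. The 182 members with a KRAB box had fewer ends than the 133 without. Their medians were 12.7 ends per kb (quartiles 3.52 and 25.7) with a KRAB box and 22.7 (quartiles 12.1 and 53.3) without, a ratio of 0.559. At least 10 sequences were found for 136 members with a KRAB box (74.7%) and for 125 without (94.0%). The classes also differed in how far their sequence can be told apart. The median share of 27-mers, stretches as long as the mean sequence, that occur in no other annotated gene was 90.01% for KRAB members and 98.3% for the others. The ratio of medians was 0.680 per kb of such unique 27-mers and 0.845 among members with at least 90% unique 27-mers. The part of uniqueness in the rest of the difference was not tested. The SCAN domain, by which zinc finger proteins pair with each other, was found in 12 members, 4 of them with a KRAB box too. These 12 had a median of 54.4 ends per kb, and all had at least 10 sequences, led by Zfp445 with 787, Zfp397 with 714 and Zfp369 with 659.

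A sequence counted as a member's own only if it matched no other gene, so members with close copies had fewer positions where an own end could lie, while density was taken over the whole transcript. In all, 86.5% of member 27-mers occurred in 1 gene only, and 6.85% occurred in another member. The 44 members with under 50% unique 27-mers had a median of 0.876 ends per kb, and 16 of them had none. The 76 members between 50% and 90% had a median of 14.1, the 115 between 90% and 99% had 22.6, and the 80 at 99% or more had 22.2. Much of this order is set by the rule itself. Per kb of unique 27-mers, the medians were 6.89 over the 38 of the 44 that have any, then 18.6, 23.5 and 22.4. Spearman's rho between uniqueness and density was 0.464 per kb of transcript (315 members) and 0.277 per kb of unique 27-mers (309 members), both descriptions of genes that share 1 list. The number of fingers did not order the density (rho = -0.00469), nor did the U content of the transcript (rho = -0.0623). The 63 members numbered 900 and above, with a median uniqueness of 56.2%, had a median of 4.46 ends per kb, against 20.3 for the 252 numbered lower. Chromosome 7 held 75 members with a median of 20.7 ends per kb. Chromosome 4 held 27 with a median uniqueness of 43.2% and a median of 1.78 ends per kb, and chromosome 2 held 24 with a uniqueness of 54.9% and a median of 5.06.

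**Figure D3:**
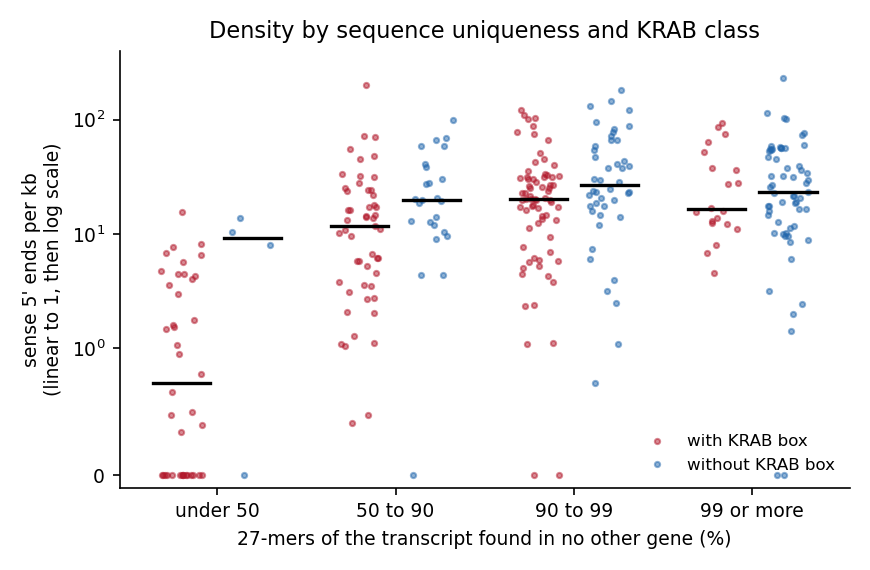
Sense 5′ ends per kb, over the longest transcript (vertical axis, linear up to 1 and logarithmic beyond) for each of 315 members, grouped by the share of their 27-mers found in no other gene (horizontal axis), with KRAB members in red to the left of the others in blue and medians as black bars. The 44 members under 50% have a median of 0.876 ends per kb, and the 80 members at 99% or more have a median of 22.2, but own ends can lie only where the sequence is unique, and per kb of unique 27-mers these medians are 6.89 (38 members) and 22.4.

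No own sense sequence was listed for 21 members. Of these, 17 carry a KRAB box and 16 have under 50% unique 27-mers. The 3 longest are Zfp616 (5014 nt, 91.6% unique), Zfp456 (4126 nt, 24.5%) and Zfp781 (4067 nt, 2.004%). The other 4 of the 21 with at least 50% unique 27-mers, named after their values were seen, are Zfp735 (92.2%), Zfp131 (99.7%), Zfp648 (100%) and Zfp352 (73.8%). The transcripts come from a later genome build than the mm9 table, so a gene that mm9 lacks or holds in another form cannot be told from a gene without sequences. At the edge of the name rule, Zfp101 had 36 sequences and Zfp995 had 12, while Zfp97, just outside it, had 0.

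A further 272 sequences matched more than 1 member. Most matched a pair of genes in opposite directions, as genes that overlap on opposite strands do. Zfp646 and Zfp668 shared 182, Zfp784 and Zfp865 shared 59, and Zfp174 and Zfp597 shared 7. Zfp784 had no sequence of its own. Another 5 were antisense to both Zfp617 and Zfp882 on chromosome 8. The remaining 19 were sense to 3 to 7 members at once. All 19 were listed on a chromosome that holds none of the genes they match, and all 19 span an exon junction in every transcript match. Within the genes' own sequences, 112 of 63950 spanned a junction in every match. On the longest transcripts alone, 2.73% of the members' 27-mers span one. These are unlike measures, and each sequence is listed with 1 start and 1 end in the genome. The 11 own sequences that were listed off their gene's chromosome were all among these 112. The 2 sequences below show such shared stretches, with the first base in capitals. The first matches Zfp626, Zfp850 and Zfp974 on chromosome 7, and the second matches Zfp534 and 6 other members on chromosome 4.
Shared by 3 members (chr6:36906792-36906819, plus strand): Tggtctgtgggtcagtgacatttaggga
Shared by 7 members (chr3:12856139-12856166, plus strand): Tctgttgtttgtggaaaatcattgcata

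Within the coding sequence, the finger array was slightly denser than the rest. The array was taken here from the first to the last finger of a protein. It includes any sequence between fingers that do not adjoin, so these values are not about finger sequence alone. The 289 members compared had at least 2 fingers and at least 100 nt of coding sequence outside the array. In these, the array had 31.8 ends per kb and the remaining coding sequence 24.95, a ratio of 1.27. The ratio was also 1.27 over unique 27-mers. The array was the denser stretch in 70 of the 104 with at least 50 coding ends. The pooled ratio was 0.962 in KRAB members and 1.54 in the others, but the array was denser in 33 of 45 KRAB members and 37 of 59 others, so the pooled ratios and the counts of genes do not order the classes alike.

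Inside the array, 1 codon stood out. The canonical repeat is 28 codons long, from the first cysteine of a finger to that of the next, and 2282 repeats of exactly 84 nt were found in 274 members. Codon 27, the last but 1 of the linker, held 758 ends, 17.003% of all ends in these repeats, where an even spread would give 3.57%. It had 156 ends per 1000 positions with a unique 27-mer, and each of the other 27 codons had between 6.68 and 62.7. The codon spells tyrosine (TAT or TAC) in 76.6% of repeats and phenylalanine (TTT or TTC) in 17.003%, and its first base is U in 93.7%. Most 5′ ends of the list are also U. The difference was smaller, but still there, when only positions with a U were counted. Codon 27 then had 246 ends per 1000 unique U, against 206 for codon 17, that of the first histidine, and 26.9 to 173 for the other 26. The remaining 6 linker codons had only 44.3 to 96.2, so the 161 ends per 1000 U of the linker as a whole rest on codon 27.

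The ends at codon 27 were spread over many genes. At least 1 was found in 148 of the 274 members. Of the 57 members with at least 28 ends in such repeats, 53 had more there than an even spread over codons gives, a share that takes no account of the U at this codon. Counted over unique U only, codon 27 had 246 ends per 1000 and the rest of the repeat 76.5. Codon 27 was the higher in 91 of 105 members with at least 10 such ends. The limits of 28 and 10 ends count those at codon 27 too, and some members pass only through them. Both counts therefore lean towards codon 27 and are descriptions only. Zfp420 had 22 of 60 repeat ends at this codon, Zfp626 had 19 of 77, and Zfp568, which represses a placental Igf2 promoter, had 18 of 55. The 4 of the 57 that were not above the even share were Zfp142 with 0 of 85, Zfp646 with 1 of 71, Zfp710 with 1 of 35 and Zfp513 with 1 of 31. These 7 genes were named after their values were seen. The share was 18.999% in KRAB members and 14.1% in the others. The fullest linker end was taken from each of the 60 members with the most sequences, less those on 1 chromosome not used for sequences. These ends were ordered by their number of sequences, with ties by gene name, and the first 8 were kept. Zfp689 came first with 6 sequences, and the last kept had 5. Of these 8 ends, 6 began at the first base of codon 27. They are shown with the linker bases in capitals, and the next finger's first cysteine codon follows.
Zfp689 (chr7:134587993-134588022, minus strand): TACCCAtgtcctgactgtgagcggcgtttc
Zfp113 (chr5:138586502-138586530, minus strand): TATGAAtgtagtgaatgtggaaaggcctt
Zfp180 (chr7:24890884-24890912, plus strand): TACGAGtgcggccagtgtgggaagacgtt
Zfp239 (chr6:117821420-117821447, plus strand): TTCAAGtgtgacaggtgtgggaagggct
Zfp329 (chr7:13395947-13395975, minus strand): TATGAGtgtagcagatgtggaaaggcttt
Zfp334 (chr2:165206720-165206748, minus strand): TACAAGtgcaaggagtgtggcaaagcctt
In Zfp239 the codon is the phenylalanine codon TTC, and in the other 5 it is a tyrosine codon.

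**Figure D4:**
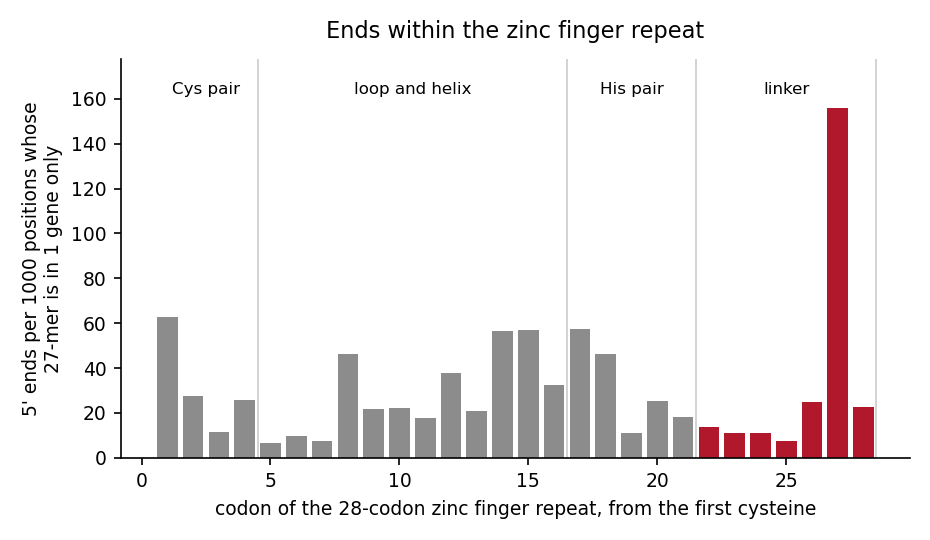
Distinct sense 5′ ends per 1000 positions whose 27-mer occurs in 1 gene only (vertical axis) for each codon of the 28-codon finger repeat, counted from the first cysteine (horizontal axis), pooled over 2282 repeats of 84 nt, with linker codons in red. Codon 27 reaches 156 and no other codon exceeds 62.7.

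Among member sense sequences, 71.8% began with U (95% exact Clopper-Pearson interval 71.4 to 72.1), 2.79 times the 25.7% U content of the transcripts. In other protein-coding genes 69.2% began with U, 2.73 times their U content of 25.4%. The intervals cover counting error only, and overlapping sequences are not independent. KRAB members had 74.4% with a U content of 26.8%, and members without a KRAB box had 70.2% with 25.01%. All 137 members with at least 100 sequences lay above their own U content, with shares between 48.1% in Zfp384 and 87.7% in Zfp952. Zfp346, the densest member, was low at 57.6%. By region, the share was 69.2% in the 5′ UTR, 68.8% in the coding sequence and 75.4% in the 3′ UTR, where the U content was 21.46%, 21.2% and 29.5%. The base at position 10 was A in 32.5%, close to the 30.9% at positions 11 to 20. In other genes these shares were 30.6% and 30.1%. The mean length was 27.2 nt (SD 1.35 over 63950 sequences) for members and 27.1 nt for other genes.

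**Figure D5:**
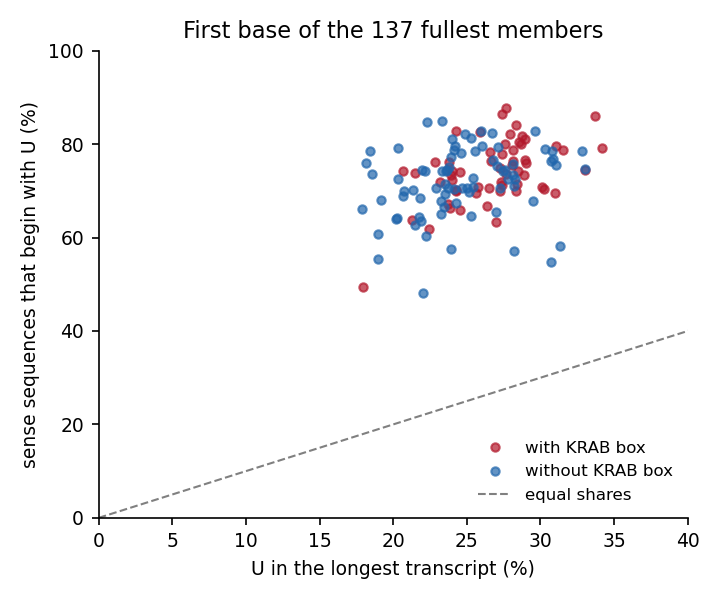
Share of sense sequences that begin with U (vertical axis, percent) against the U content of the longest transcript (horizontal axis, percent) for the 137 members with at least 100 sense sequences, KRAB members in red and the others in blue, with the line of equal shares dashed. Every point lies above the line, between 48.1% and 87.7%.

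Own antisense sequences were few. The sense share was 97.5% (97.4 to 97.6) for members and 95.2% for other protein-coding genes. Another 2753 sequences matched both a member and a gene outside the group, 2408 of them in opposite directions, and were not counted. The shares thus leave out stretches where genes overlap on opposite strands. How far this moves them was not tested. At least 10 antisense sequences were found for 30 of 315 members, against 10.7% of all protein-coding genes. Just 5 members held 702 of the 1628 (43.1%). Zfp397 had 255, of which 206 lay in the 3′ UTR, beside 714 sense sequences. Zfp867 had 148 antisense and 126 sense, Zfp846 had 128 and 370, Zfp169 had 89 and 176, and Zfp316 had 82 and 225. Of the antisense sequences 83.8% began with U (82.0 to 85.6) and 30.2% had A at position 10. Slicing by a PIWI protein leaves opposite 5′ ends that overlap by 10 nt. Members had 75 such pairs, against a mean of 58.2 at the other overlaps from 1 to 20 nt, a ratio of 1.29. Among those other overlaps, 4 nt had 78 pairs and 5 nt had 76, both more than the 75. The ratio in other protein-coding genes was 1.37.

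Grouped by known role, KRAB proteins that repress retroelements or guard imprints ranged widely. Of the 6, 4 had at least 10 sequences, against 82.9% of members and 56.3% of all protein-coding genes. Zfp568 had 1152, Zfp445, which maintains imprints, had 787, Zfp819 had 101, and Zfp809, which silences murine leukaemia proviruses, had 70. Zfp932 had 4 with 36.7% unique 27-mers, and Zfp708 had 1 with none. Their median was 28.6 ends per kb. The 21 developmental and chromatin factors, mostly without KRAB, all had at least 10 sequences, as did 82.9% of members and 56.3% of all protein-coding genes, with a median of 28.0 ends per kb. Their range ran from 1399 sequences in Zfp451 to 12 in Zfp423, a regulator of neural and fat cell precursors. Zfp292 had 856, and Zfp462, with 33 fingers, had 736.

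Members that act on RNA, ribosomes or the spindle also all had at least 10 sequences (82.9% of members, 56.3% of all protein-coding genes), with a median of 20.98 ends per kb over 10 genes. Below Zfp346 came Zfp638 with 392, Zfp473, which in human binds the histone pre-mRNA processing complex, with 255, and Zfp106 with 175. Zfp598, the ubiquitin ligase that senses collided ribosomes, had 107, and Zfp207, a spindle assembly factor, had 81. Among 5 genes of germ cells and the early embryo, Zfp318 had 450, Zfp628, which acts in spermatids, had 167, and Zfp541, which acts in meiosis, had 51. Zfp296 had 41 and Zfp352 had 0, so 4 of the 5 had at least 10. The partners of KRAB proteins, none of them members, all had at least 10 sequences, as did 56.3% of all protein-coding genes, with a median of 23.7 ends per kb over 23 genes. Cbx5, which encodes heterochromatin protein HP1 alpha, had 3643 sequences, Trim28 had 259, Setdb1 had 177 and Hdac1 had 18. The medians of these lists lay above the 5.74 ends per kb of all protein-coding genes, and no test was made of them.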

How the data were processed

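Per the labels, MILI was immunoprecipitated from testis lysate, RNAs of the piRNA size range were cut from a gel, and an Illumina small RNA kit served for the libraries. Per the submitters' processing notes, positions refer to mm9. Which aligner was used, and with what mismatches or read filters, is not given in the sources used here. The deposited table holds positions (chromosome, start, end, strand; 1-based), not counts or expression values. Here, each sequence was matched in full, sense and antisense, to 141767 GENCODE M21 transcripts (built on GRCm38), by sequence and not by coordinate. Exon and coding limits of that annotation placed regions and junctions on the transcripts. Its chromosomes were compared with those listed for the sequences. The matching step recovered 600 of 600 planted sequences and matched 0 of 600 random ones. Regions and fingers (C, 2 to 4 residues, C, 12 residues, H, 3 to 5 residues, H) used the transcript with the longest coding sequence. KRAB and SCAN domains used the highest score over all coding transcripts of a gene. Matching ran in numba 0.67.0 under Python 3.11.15, and summaries in pandas 2.3.3, scipy 1.17.1 and numpy 2.4.6.

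The planned edgeR test of the genotypes was not run, since the table has no counts. The members and lists were chosen with earlier results of these data known. Named genes are the 10 fullest members, the 10 densest, the 5 with the most antisense sequences, the 3 longest with none and members of the lists. Every other gene named, such as the extremes of a range and the genes whose linker or shared sequences are shown, was chosen after its values were seen. Repeats and matches outside annotated genes were not analysed here.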

Additional observations from a re-analysis of the deposited data

How the results depend on the processing

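The count of members, the median density, the shares, the ratios and the shared sequences were recomputed under some of these settings: sequences of 26 to 28 nt only, 5′ ends in place of sequences, 27-mers of 1 gene, or the leading gene left out. The ratios of regions, arrays and KRAB classes were not recomputed for 26 to 28 nt, and the codon 27, antisense and list values only as the text gives them. Restricted to 26 to 28 nt, the median density was 13.8 ends per kb, the share beginning with U 70.6% and the sense share 97.4%. Counted by 5′ ends, the last 2 were 64.96% and 96.9%, and the sense share was 97.9% without Zfp397. Per kb of unique 27-mers, the median density was 20.3 and the 3′ UTR over coding ratio 1.02. That ratio was 1.01 without Zfp652 and turned to 0.876 as the median over the 133 members compared singly. The finger array ratio was 1.23 as a median over members. With a minimum of 100 sequences, 137 members were counted in place of 261. Alternatives chosen after seeing the data gave a median of 20.3 ends per kb for members numbered under 900, and a KRAB ratio of 0.751 in these and 0.845 among members with at least 90% unique 27-mers. With only the ends on the longest transcript, also chosen after seeing the data, the median was 15.2 for members and 4.40 for all protein-coding genes, and the KRAB ratio 0.572. The KRAB ratio stayed under 1 in every setting tried, from 0.559 to 0.845.

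The table has no libraries and no counts, so the genotype comparison, its count normalizations and filters, and leaving out each replicate were not run. No paired analysis was possible because no value can be assigned to a library. Density has a ceiling, since each sequence is listed once, and genome-wide uniqueness was not measured.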
